A study of Mus musculus with 8 samples.

Results

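The genes described here are 8 regulators of meiotic arrest and of the anaphase-promoting complex (APC/C), namely Mos, Fbxo43, Wee2, Fbxo5, Pttg1, Cdc20, Fzr1 and Ube2c. They were taken by gene symbol from a table of 55487 genes, in which each symbol occurs once, by a rule on the symbol alone and with no threshold on these values. RNA came from mouse embryos at the 2-cell stage. In the 4 Polq knockdown-labelled samples, zygotes with the genotype label polq knockdown had received CasRX and a guide RNA against Polq. In the 4 control samples, zygotes with the genotype label WT had received CasRX and no named guide. CasRX is a nuclease that a guide directs to RNA, and Polq encodes DNA polymerase theta, an enzyme of DNA break repair. Zygotes were injected 20 h after hCG, the hormone that triggers ovulation. Each library was made 10 h later from 5 pooled embryos and is an average over them. The samples of a group are called biological replicates in the series text. The sources used here do not give the strain and age of the parents or where the Polq guide binds.

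The APC/C is the ubiquitin ligase that marks securin and the B-type cyclins for destruction and thereby starts anaphase and ends M phase. A mature mouse egg waits in metaphase of the second meiotic division because the APC/C is held back, by the Mos kinase cascade and by the inhibitor Fbxo43. Fertilization raises calcium, Fbxo43 protein is destroyed, and the egg leaves meiosis. The embryo then begins mitotic cycles on RNA and protein stored by the oocyte. In these pools, fewer cells with an RNA and less of that RNA per cell cannot be told apart.

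Knockdown-labelled libraries held 4726159 to 33650050 counts, with 3 of the 4 at or below 8627403, and control libraries held 33311665 to 43748621. The knockdown-labelled group is therefore also the shallower group, and depth and group cannot be fully told apart. Polq itself was at 16.9, 38.9, 29.2 and 41.1 counts per 1000000 (CPM) in knockdown-labelled replicates 1 to 4, against 34.6, 49.7, 40.1 and 32.7 CPM in control replicates 1 to 4. The groups overlapped, and the fitted ratio was 0.804 with a 95% interval from 0.478 to 1.35. An exact permutation test over the 8 libraries, 2-sided, returned p = 0.343 (smallest possible 0.0286). The targeted RNA thus did not separate the groups, so the libraries are named by their label. All 10 oocyte markers and all 9 markers of the 2-cell stage found in the table had counts. Dppa3, an abundant RNA of the egg, averaged 35363 ± 6566 CPM in knockdown-labelled and 36671 ± 3300 CPM in control libraries (SD, n = 4 each), and Tcstv3, which the 2-cell embryo transcribes, averaged 271 ± 89.9 and 294 ± 104 CPM in the same order. Of 12 markers of cumulus or granulosa cells 8 were at 0 in every library, and the 12 summed to 0.793 to 10.7 CPM in knockdown-labelled libraries and to 0 to 21.5 CPM in controls. Of 8 sperm markers 7 were at 0 in every library, and Prm2 was at 0 to 7.34 CPM in knockdown-labelled libraries and 0 to 7.06 CPM in controls.

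Because the storage of maternal RNA is read from the 3′ end of a transcript, the ends of the 8 RNAs were examined for the letters that govern it. The polyadenylation signal AATAAA was searched on the transcript's own strand in the last 100 bases of 1 annotated principal transcript per gene, or in the whole untranslated end where that is shorter. TTTTAT and TTTTAAT, forms of the cytoplasmic polyadenylation element bound by CPEB proteins in oocytes, were searched in the same way. No other form was searched, so a gene without a match is not shown to lack an element. TTTTAAT can share its last letters with AATAAA. The signal was found in 6 of the 8 genes, in all but Fbxo43 and Fzr1, and in 67.8% of 9879 tested genes with such a window. A TTTTAT or TTTTAAT element was found in 3 of the 8, Fbxo5, Cdc20 and Wee2, and in 19.9% of the 9879. The 30 bases that end with the last AATAAA are shown for the 6 genes, as letters of GENCODE M21 transcripts on GRCm38. They are written 5′ to 3′ with the signal and any TTTTAT or TTTTAAT in capitals.
Cdc20, chr4:118432917-118432946, minus strand: tcttgtTTTTATTTTATtttttctAATAAA
Wee2, chr6:40466764-40466793, plus strand: cataTTTTAATccagatcattgtaAATAAA
Mos, chr4:3870673-3870702, minus strand: taccactagggcatatttttaggaAATAAA
Fbxo5, chr10:5799171-5799200, minus strand: atacacataattttgtttagttaaAATAAA
Pttg1, chr11:43420283-43420312, minus strand: tagtttctgtatgtatgttgtattAATAAA
Ube2c, chr2:164772854-164772883, plus strand: ttgaacccttaacaatgtatattaAATAAA
Within these 30 bases an element stands in 2 of the 6 genes, Cdc20, where it occurs as 2 overlapping copies, and Wee2. The same holds for 7.49% of 6685 tested genes with such a site. In Fbxo5 the element does not lie wholly within these 30 bases. A match is a description of letters and not a measured site.

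None of the 8 genes passed the test between the groups, and in all 8 the groups overlapped. Across the 13146 genes tested, 0% passed the edgeR quasi-likelihood test with Benjamini-Hochberg adjustment at 0.05, and 2.98% had groups that did not overlap (1.44% with the knockdown-labelled libraries higher and 1.54% with them lower). At an unadjusted p under 0.05 there were 369 genes, or 2.81% (1.1% higher and 1.71% lower in knockdown-labelled libraries), and none of the 8 was among them. DESeq2 called 20 genes, or 0.154%, and limma-voom 0, again with none of the 8. All 8 passed the filter on low counts, 5 with a positive and 3 with a negative log2 fold change, beside 46.6% positive among all genes tested. Their median log2 fold change, knockdown-labelled minus control, was 0.092, and that of all genes tested was −0.047. The edgeR adjusted p was 0.99998 for each of the 8.

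**Figure D1:**
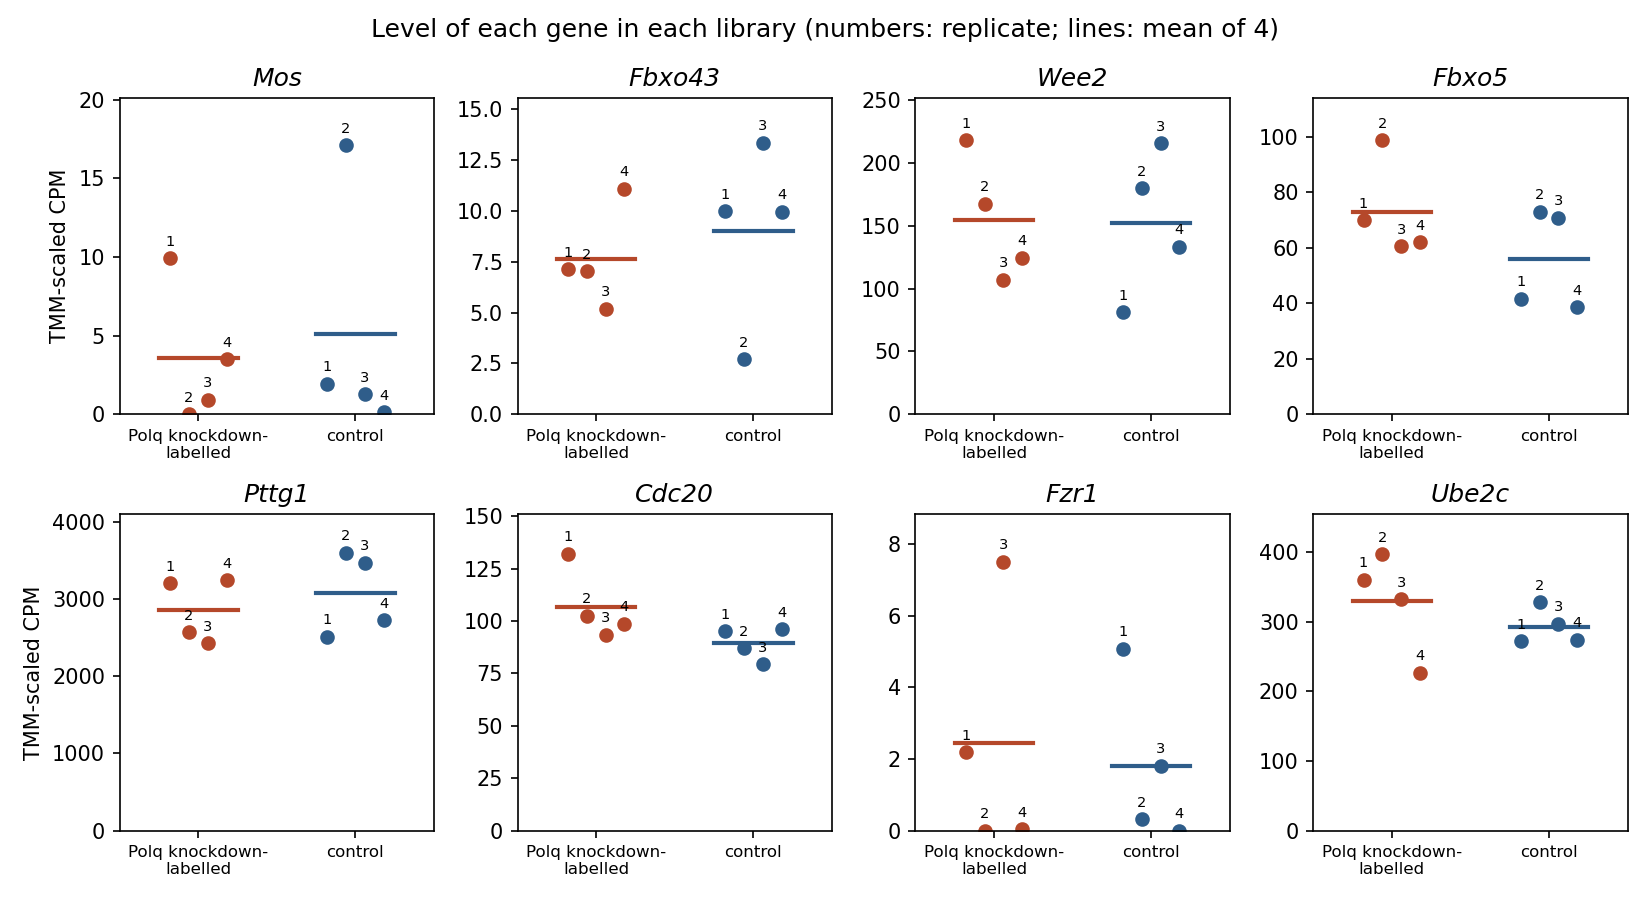
Level of each of the 8 genes in TMM-scaled CPM (y axes, each from 0), with 1 point per library, its replicate number above it, and a line at the mean of the 4 libraries of a group (Polq knockdown-labelled left, control right). In every panel the 2 groups share a range, and Mos and Fzr1 hold libraries at or near 0 in both groups.

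The genes of metaphase arrest come first. Mos encodes the kinase that starts the MAP kinase cascade of the egg. It was at 9.92, 0, 0.924 and 3.51 CPM in knockdown-labelled replicates 1 to 4 and at 1.93, 17.1, 1.26 and 0.140 CPM in control replicates 1 to 4. The highest library was a control and the only one without a count was knockdown-labelled, and libraries of both groups lay below 1 CPM. The counts behind these levels were 50, 0, 8 and 112 in knockdown-labelled libraries, against 63, 543, 55 and 6 in controls. A count of 0 in knockdown-labelled replicate 2 allows a level of up to 0.364 CPM, for counting error only. Mos averaged 3.59 ± 4.47 CPM in knockdown-labelled and 5.11 ± 8.03 CPM in control libraries (SD, n = 4 each), a log2 fold change of −0.52 with an SE of 1.65. The 95% interval ran from −4.21 to 3.17, so that it held both a large rise and a large fall of Mos. Direction depended on single libraries. It was 1.70 without control replicate 2, where the control mean was 1.11 CPM, and −1.76 without knockdown-labelled replicate 1, where that group's mean was 1.48 CPM. Of the 12 markers of cumulus or granulosa cells, 8 were at 0 in every library and 4 had counts. Tnfaip6, a cumulus marker, was also highest in control replicate 2, at 16.2 CPM. It was at 0.793 CPM in knockdown-labelled replicate 1 and at 10.7 CPM in knockdown-labelled replicate 4, where Mos was at 9.92 and 3.51 CPM. Its part in the Mos values was not tested.

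Fbxo43, also called Emi2, is the APC/C inhibitor that keeps the egg in metaphase until fertilization. It was at 7.14, 7.05, 5.20 and 11.1 CPM in knockdown-labelled replicates 1 to 4, against 10.00, 2.71, 13.4 and 9.96 CPM in control replicates 1 to 4. Both the lowest and the highest library were controls. Fbxo43 averaged 7.62 ± 2.48 CPM in knockdown-labelled and 9.01 ± 4.49 CPM in control libraries (SD, n = 4 each), with a log2 fold change of −0.24 (SE 0.65). Its interval ran from −1.69 to 1.21. The value was 0.012 without control replicate 3 and −0.53 without control replicate 2, the library with the most Mos.

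Wee2 is the oocyte form of the Wee1 kinase, which blocks Cdk1 by phosphorylation and is used both in prophase arrest and in leaving metaphase. It was at 218, 167, 107 and 124 CPM in knockdown-labelled replicates 1 to 4 and at 81.2, 179.7, 216 and 133 CPM in control replicates 1 to 4. The 2 groups covered nearly the same range. Wee2 averaged 154 ± 49.4 CPM in knockdown-labelled and 152 ± 58.3 CPM in control libraries (SD, n = 4 each), with a log2 fold change of 0.015 (SE 0.33, 95% interval −0.71 to 0.74). A value so near 0 changed sign with single libraries, and it was −0.20 without knockdown-labelled replicate 1, −0.017 without knockdown-labelled replicate 2, −0.19 without control replicate 1 and −0.046 without control replicate 4.

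The inhibitors of the mitotic cycle follow. Fbxo5, also called Emi1, restrains the APC/C in interphase and so lets cyclins accumulate. It was at 69.8, 98.7, 60.4 and 62.0 CPM in knockdown-labelled replicates 1 to 4, against 41.6, 73.0, 70.8 and 38.4 CPM in control replicates 1 to 4. Control replicates 1 and 4 lay below all knockdown-labelled libraries, and control replicates 2 and 3 lay among them. Fbxo5 averaged 72.7 ± 17.8 CPM in knockdown-labelled and 55.9 ± 18.4 CPM in control libraries (SD, n = 4 each). The log2 fold change of 0.38 (SE 0.30, 95% interval −0.28 to 1.04) did not pass, and its direction was the same in all 19 other settings.

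Pttg1 encodes securin, the inhibitor of separase that the APC/C removes to release sister chromatids. It was the most abundant of the 8, at 3202, 2572, 2428 and 3245 CPM in knockdown-labelled replicates 1 to 4 and at 2512, 3599.8, 3471 and 2727 CPM in control replicates 1 to 4. Knockdown-labelled replicate 3 was the lowest library and control replicate 2 the highest. The means were 2862 ± 423 CPM in knockdown-labelled and 3077 ± 539 CPM in control libraries (SD, n = 4 each), with a log2 fold change of −0.10 (SE 0.16). The interval, −0.47 to 0.26, was the narrowest of the 8, so that a fall below 0.723 or a rise above 1.196 times the control level lay outside it.

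Cdc20 and Fzr1 are the subunits that bring substrates to the APC/C, Cdc20 in early mitosis and Fzr1, also called Cdh1, from late mitosis into the G1 phase. Cdc20 was at 132, 102, 93.4 and 98.6 CPM in knockdown-labelled replicates 1 to 4 and at 95.1, 87.0, 79.2 and 96.1 CPM in control replicates 1 to 4. Knockdown-labelled replicates 1, 2 and 4 lay above all controls, and replicate 3 lay between them. Cdc20 averaged 107 ± 17.4 CPM in knockdown-labelled and 89.4 ± 7.89 CPM in control libraries (SD, n = 4 each). The log2 fold change of 0.25 (SE 0.20, 95% interval −0.18 to 0.69) did not pass, and the direction was the same in all 19 other settings.

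Fzr1 was barely detected. It had 11, 0, 65 and 1 counts in knockdown-labelled replicates 1 to 4 and 166, 10, 79 and 0 counts in control replicates 1 to 4. As levels these were 2.18, 0, 7.51 and 0.031 CPM in knockdown-labelled libraries, against 5.08, 0.315, 1.81 and 0 CPM in controls. Each group thus held libraries with more than 10 reads and 1 library with none, although knockdown-labelled replicate 4 and control replicate 4 were deeply sequenced. The counts of 0 allow up to 0.364 CPM in knockdown-labelled replicate 2 and 0.0698 CPM in control replicate 4. Fzr1 averaged 2.43 ± 3.54 CPM in knockdown-labelled and 1.80 ± 2.32 CPM in control libraries (SD, n = 4 each). Its log2 fold change of 0.43 (SE 2.04, 95% interval −4.13 to 4.99) turned to −1.34 when knockdown-labelled replicate 3 was left out, and stood at 1.77 when control replicate 1 was.

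Ube2c is the ubiquitin-conjugating enzyme that starts the chains the APC/C builds on its substrates. It was at 361, 398, 333 and 227 CPM in knockdown-labelled replicates 1 to 4 and at 273, 328, 298 and 274 CPM in control replicates 1 to 4. The 3 shallow knockdown-labelled libraries lay above all controls, and replicate 4, the only one of its group as deep as the controls, lay below all of them. Ube2c averaged 329.6 ± 73.4 CPM in knockdown-labelled and 293 ± 26.0 CPM in control libraries (SD, n = 4 each), with a log2 fold change of 0.17 (SE 0.19, 95% interval −0.26 to 0.60). It was −0.36 when replicate 4 stood alone for its group, in a fit added after the data were seen, whose median over all genes was also −0.36. With all libraries thinned to the smallest total, the log2 fold change of Ube2c was 0.21.

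**Figure D2:**
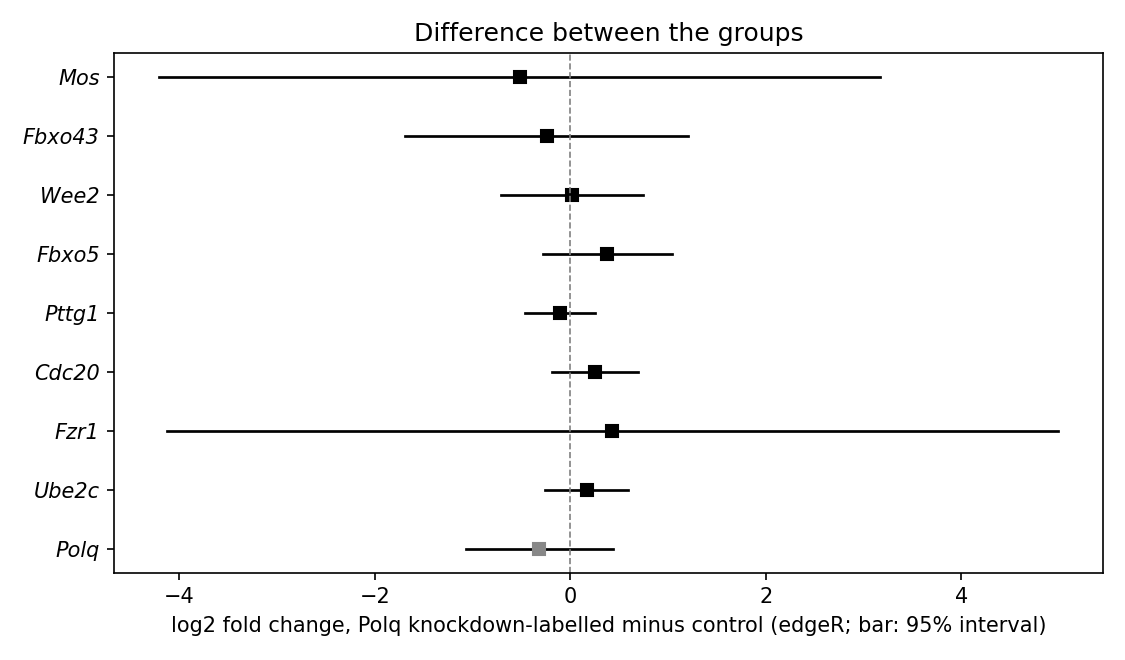
Log2 fold change from edgeR, Polq knockdown-labelled minus control (x axis), for the 8 genes and for Polq, with bars for the 95% interval over 4 libraries a group. Every bar crosses 0, from the narrow one of Pttg1 (−0.47 to 0.26) to the wide ones of Mos and Fzr1.

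Levels of different genes can be compared only per length, and were divided by the exonic length. Pttg1 was at 1431 ± 211 CPM per kb of exon in knockdown-labelled and 1539 ± 269 CPM per kb in control libraries (SD, n = 4 each). Ube2c followed at 127 ± 28.2 and 113 ± 10.01 CPM per kb in the same order of groups. The exonic length was 2600 bases for Ube2c and 2000 for Pttg1, against 967 and 948 for the principal transcripts used for the 3′ ends. Per kb of those transcripts the levels of Ube2c and Pttg1 would be higher. Over the 8 libraries neither gene shared a range with the next one below. Cdc20 was at 57.1 ± 9.30 CPM per kb in knockdown-labelled and 47.8 ± 4.23 CPM per kb in control libraries, Wee2 at 49.1 ± 15.7 and 48.5 ± 18.6 CPM per kb, and Fbxo5 at 36.3 ± 8.87 and 27.9 ± 9.21 CPM per kb. The ranges of Cdc20 and Wee2 overlapped, as did those of Wee2 and Fbxo5, so that the order among the 3 is not resolved. The lowest Fbxo5 library, at 19.2 CPM per kb, was above every library of the last 3 genes. These were Mos at 2.48 ± 3.09 CPM per kb in knockdown-labelled and 3.52 ± 5.54 CPM per kb in control libraries, Fbxo43 at 1.89 ± 0.615 and 2.23 ± 1.11, and Fzr1 at 0.542 ± 0.788 and 0.401 ± 0.517. Their ranges overlapped with each other. All 8 genes held the same rank with the longest annotated transcript as the length and with library totals in place of TMM scaling.

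**Figure D3:**
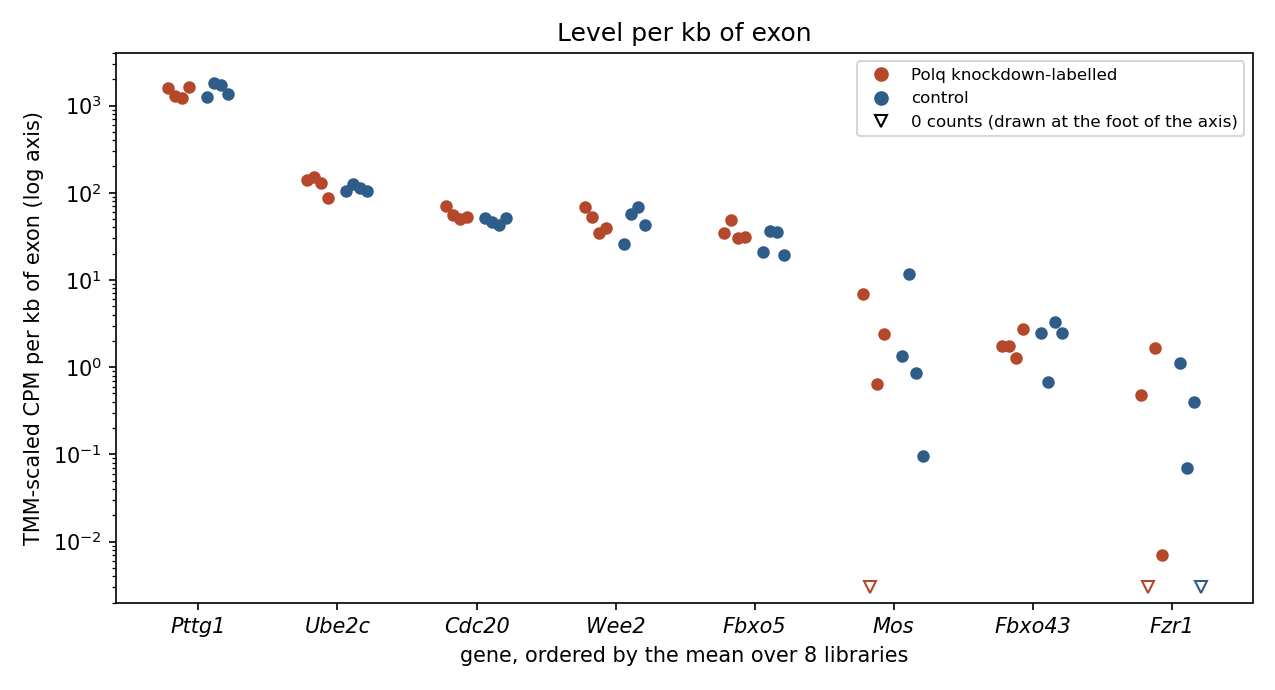
TMM-scaled CPM per kb of exon (y axis, log scale) of the 8 genes in the 4 Polq knockdown-labelled and the 4 control libraries, ordered by the mean over 8 libraries, with open triangles for libraries without a count. Pttg1 and Ube2c stand clear above the rest, Cdc20, Wee2 and Fbxo5 share a range, and Mos, Fbxo43 and Fzr1 lie below.

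The spread between libraries differed from gene to gene. The SD of log2(CPM + 1) over the 8 libraries was 0.21 for Cdc20, beside a median of 0.41 among 782 genes within 0.5 log2 units of its mean level. It was 0.50 for Wee2, beside 0.38 among 610 such genes, and 0.63 for Fbxo43, beside 0.94 among 1905. Cdc20 and Fbxo43 thus varied less than the typical gene of their level, and Wee2 more. Mos, at 1.49 beside 1.16, and Fzr1, at 1.24 beside 1.01, also varied more. Fbxo5 had 0.44 beside 0.47, Ube2c 0.26 beside 0.31 and Pttg1 0.23 beside 0.23, the last among only 19 genes.

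The genes with the most similar pattern were found by the root mean square difference of log2(CPM + 1) over the 8 libraries, after each gene was centred on its own mean, among 2913 abundant genes. For Cdc20 the nearest was Ccna2, cyclin A2, at a difference of 0.11, followed by Serinc3 at 0.13, where the median over candidates was 0.45. Wee2 was nearest to Tcl1b3 (0.14) and Tcl1 (0.16), with a median of 0.63. Pttg1 was nearest to Ppp1r12a (0.079) and Ube2d3 (0.086), Ube2c to Tfrc (0.14) and Hsp90ab1 (0.15), and Fbxo5 to Cwc22 (0.20) and mt-Co1 (0.21). Fbxo43 was nearest to Plpbp (0.26) and Bnip3 (0.27). Mos was nearest to Ppp1r2-ps7 (0.74) and Sdhaf4 (0.79), with a median of 1.46, and Fzr1 to Psme3 (0.73) and Ccdc73 (0.74), with a median of 1.22. The difference is not scaled to a gene's own spread, which was widest for Mos and Fzr1, so its size is not comparable between the 8 genes.

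Ratios of 2 genes within a library do not depend on how libraries are scaled, and are given as log2 of counts, each plus 0.5, with no test. Fbxo43 over Fbxo5, the meiotic against the mitotic inhibitor, was −3.27, −3.80, −3.52 and −2.48 in knockdown-labelled replicates 1 to 4, against −2.06, −4.74, −2.40 and −1.95 in control replicates 1 to 4. Control replicates 1, 3 and 4 lay above all knockdown-labelled libraries, and control replicate 2 lay below all of them. Pttg1 over Espl1, securin over the separase it inhibits, was 7.13, 6.28, 7.16 and 6.54 in knockdown-labelled replicates 1 to 4 and 6.77, 7.84, 7.41 and 7.88 in control replicates 1 to 4. Control replicates 2, 3 and 4 exceeded every knockdown-labelled library, while control replicate 1 lay among them. The means were 6.78 ± 0.44 in knockdown-labelled and 7.48 ± 0.52 in control libraries (SD, n = 4 each). Wee2 over Wee1, its somatic relative, averaged 2.10 ± 0.91 in knockdown-labelled and 2.34 ± 0.67 in control libraries, and the 2 groups overlapped.

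**Figure D4:**
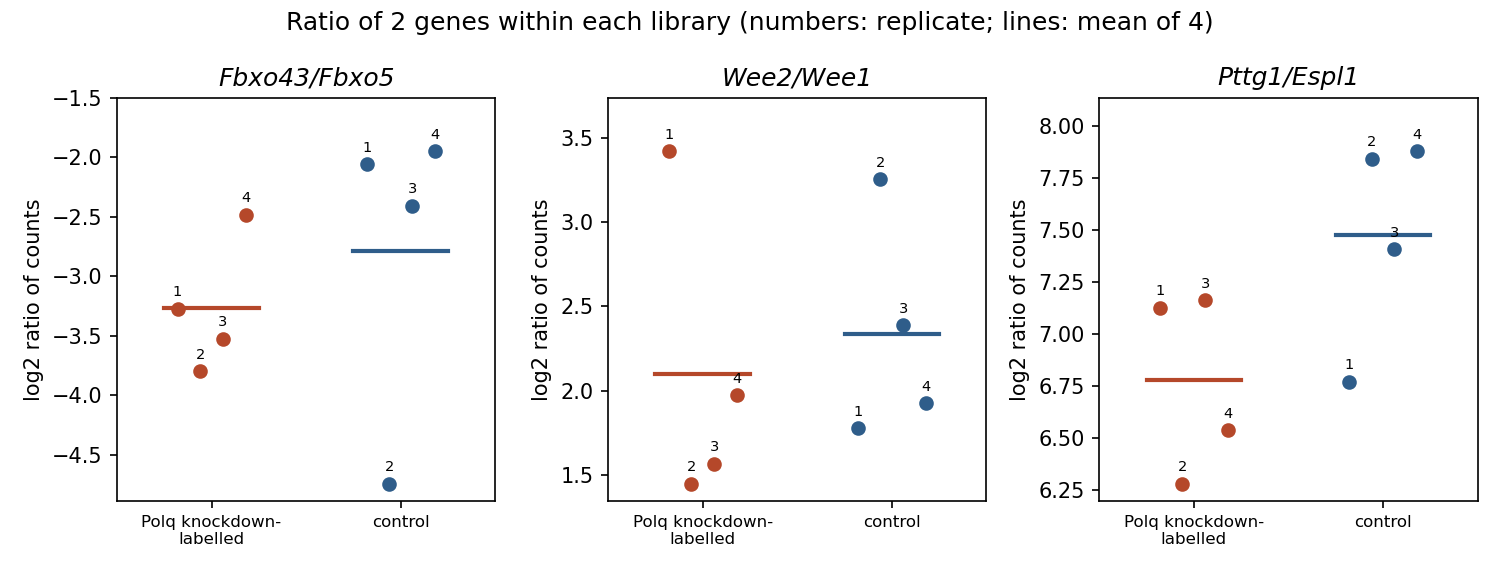
Log2 ratio of the counts of 2 genes in each library (y axes), for Fbxo43 over Fbxo5, Wee2 over Wee1 and Pttg1 over Espl1, with the replicate number above each point and a line at the mean of the 4 libraries of a group (Polq knockdown-labelled left, control right). For Pttg1 over Espl1, control replicates 2, 3 and 4 lie above all 4 knockdown-labelled libraries.

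The partners of the 8 genes were described from 6 lists of 78 genes, 73 of which could be tested. None passed the edgeR test in either direction. At an unadjusted p under 0.05 there were 6 of the 73, 4 higher and 2 lower in knockdown-labelled libraries, beside 2.81% of all genes tested. Groups did not overlap for 2, Plk1 and Mastl, beside 2.98%. The log2 fold change was positive for 42 of the 73 and negative for 31. Among all genes tested 46.6% were positive and the median was −0.047, which the sign counts and medians of each list stand beside. Of the 15 subunits and partners of the APC/C all were tested, 11 with positive and 4 with negative log2 fold changes (median 0.097). Anapc11, the RING subunit that binds the ubiquitin-conjugating enzyme, was at 195 ± 49.7 CPM in knockdown-labelled and 136 ± 21.0 CPM in control libraries (SD, n = 4 each), with a log2 fold change of 0.53 (SE 0.22). Cdc26, a small subunit of the scaffold, was at 42.0 ± 8.07 and 29.1 ± 6.25 CPM, and Anapc15, which helps remove the spindle checkpoint complex, was the most abundant at 302 ± 53.7 and 284 ± 38.9 CPM, each with knockdown-labelled libraries first.

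Of 13 genes of the Mos and MAP kinase pathway 12 were tested, 4 positive and 8 negative (median −0.099). Map2k1, the kinase MEK1 that Mos activates, was at 38.7, 26.9, 26.2 and 21.9 CPM in knockdown-labelled replicates 1 to 4, against 38.5, 46.6, 44.8 and 50.5 CPM in control replicates 1 to 4. Only control replicate 1 fell within the range of the knockdown-labelled libraries, and the log2 fold change was −0.67 (SE 0.28, 95% interval −1.29 to −0.050, edgeR adjusted p = 0.99998). Rps6ka6, an RSK kinase, was at 56.4 ± 22.2 CPM in knockdown-labelled and 77.2 ± 17.7 CPM in control libraries. Ppp2r5c, a regulatory subunit of the phosphatase PP2A, was at 84.4 ± 14.8 and 89.2 ± 21.7 CPM in the same order.

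The 13 genes of the Cdk1 switch, on which APC/C activity turns, were all tested, 10 positive and 3 negative (median 0.17). Ccnb2, cyclin B2, was at 27.0, 28.7, 14.0 and 36.2 CPM in knockdown-labelled replicates 1 to 4 and at 6.11, 15.03, 7.48 and 5.33 CPM in control replicates 1 to 4. The groups overlapped only through knockdown-labelled replicate 3 and control replicate 2, and the log2 fold change was 1.64 (SE 0.49, 95% interval 0.56 to 2.73, edgeR adjusted p = 0.99998). Mastl, the Greatwall kinase that keeps PP2A off Cdk1 substrates, was at 39.5, 41.4, 80.5 and 59.9 CPM in knockdown-labelled libraries, all below the 86.2, 105, 138 and 89.6 CPM of the controls. Its log2 fold change was −0.92 (SE 0.29, 95% interval −1.56 to −0.28, edgeR adjusted p = 0.99998). Ccnb1, cyclin B1, the most abundant of the list, was at 1002 ± 140.4 CPM in knockdown-labelled and 849.6 ± 112 CPM in control libraries.

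The 10 spindle checkpoint genes, which hold Cdc20 inactive until chromosomes are attached, were all tested, with 3 positive and 7 negative log2 fold changes (median −0.17). Mad2l1, which binds Cdc20, was at 1070 ± 201 CPM in knockdown-labelled and 1148 ± 207 CPM in control libraries (SD, n = 4 each). Mad2l1bp, which takes Mad2l1 off Cdc20, was at 659 ± 99.98 and 544 ± 117 CPM and Bub3, which recruits checkpoint proteins to kinetochores, at 29.4 ± 9.96 and 40.3 ± 17.4 CPM in the same order. Of 13 genes for APC/C substrates, separase and cohesin 12 were tested, 8 positive and 4 negative (median 0.16), and the meiotic cohesin Rec8 had no count in any library. Plk1, the mitotic kinase that marks Fbxo43 and Fbxo5 for destruction, was at 22.6, 8.26, 14.6 and 9.34 CPM in knockdown-labelled libraries, all above the 2.75, 4.66, 6.38 and 4.47 CPM of the controls. Its log2 fold change was 1.58 (SE 0.60, 95% interval 0.25 to 2.91, edgeR adjusted p = 0.99998). Aurkb, the kinase of the chromosomal passenger complex, was at 9.65 ± 6.18 CPM in knockdown-labelled and 22.6 ± 8.93 CPM in control libraries, and the groups overlapped. Knockdown-labelled replicate 1 held 3 counts of Aurkb, or 0.595 CPM. The log2 fold change was −1.22 (95% interval −2.87 to 0.44), and −0.83 without that library. Gmnn, geminin, a blocker of replication licensing, was the most abundant at 3322 ± 121 and 2974 ± 530 CPM.

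Of 14 genes for prophase arrest and for the calcium signal of fertilization 11 were tested, 6 positive and 5 negative (median 0.027). Camk2g, the calcium-dependent kinase that triggers loss of Fbxo43, was at 2.18, 0.607, 6.93 and 0.376 CPM in knockdown-labelled replicates 1 to 4, against 11.1, 12.2, 15.01 and 1.42 CPM in control replicates 1 to 4. Control replicates 1 to 3 lay above all knockdown-labelled libraries and control replicate 4 among them, and the log2 fold change of −1.98 had an SE of 1.11. The 95% interval ran from −4.46 to 0.499, and the edgeR adjusted p was 0.99998. The log2 fold change was −3.28 without knockdown-labelled replicate 3 and −1.62 without knockdown-labelled replicate 4. With replicate 4 alone for its group, in a fit added after the data were seen, it was −4.70. That library held 12 counts of Camk2g, and the median over all genes in that fit was −0.36. Pde3a, the phosphodiesterase whose loss of activity blocks meiotic resumption, was at 16.9 ± 8.77 CPM in knockdown-labelled and 11.4 ± 7.16 CPM in control libraries (SD, n = 4 each). Cul1, the scaffold of the SCF ligase that destroys Fbxo43 and Fbxo5, was at 432 ± 98.1 and 469.6 ± 109 CPM.

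**Figure D5:**
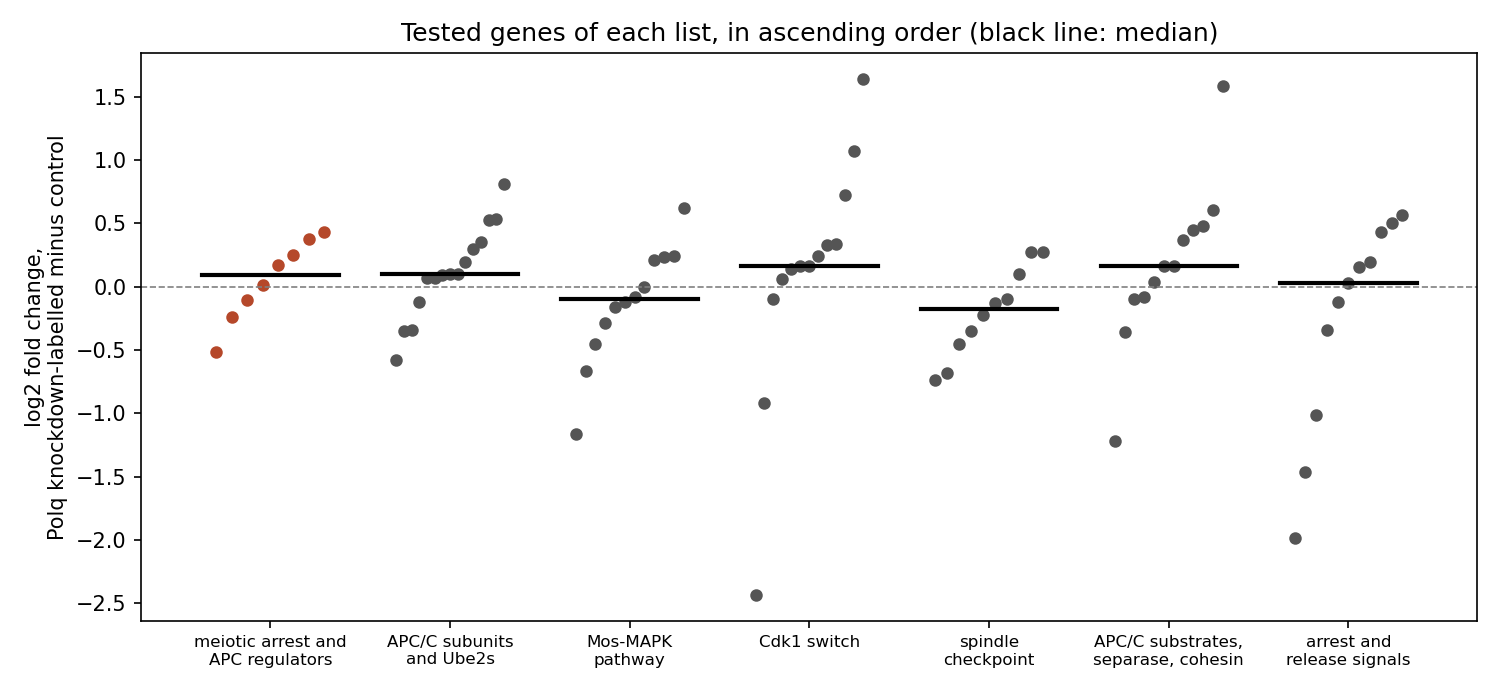
Log2 fold change from edgeR, Polq knockdown-labelled minus control (y axis), of each tested gene of the 8 regulators and of the 6 partner lists (x axis), in ascending order within a list, with a black line at the median. The medians lie between −0.17 and 0.17, and none of the points passed the adjusted test.

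In GRCm38 (GENCODE M21), Mos (ENSMUSG00000078365.5) lies on chromosome 4 from 3870657 to 3872105 as a single exon, Fbxo43 (ENSMUSG00000048230.6) on chromosome 15 from 36150060 to 36164884, and Wee2 (ENSMUSG00000037159.11) on chromosome 6 from 40439088 to 40466813. Fbxo5 (ENSMUSG00000019773.7) lies on chromosome 10 from 5799160 to 5805600 and Pttg1 (ENSMUSG00000020415.16) on chromosome 11 from 43420250 to 43426251. No annotated gene overlaps these 5. Cdc20 (ENSMUSG00000006398.15) lies on chromosome 4 from 118432901 to 118437352 and overlaps Elovl1 on the other strand by 53 bases. Fzr1 (ENSMUSG00000020235.16), on chromosome 10 from 81366222 to 81378516, overlaps Mfsd12 by 4 bases. Ube2c (ENSMUSG00000001403.13), on chromosome 2 from 164769898 to 164778822, overlaps Tnnc2 on the other strand by 1662 bases. These overlaps are between whole gene spans, introns included. Reads in bases that both genes of a pair transcribe cannot be told apart by strand, because the strand setting is unknown. Tnnc2 had 749 counts over all libraries. The same limit may touch Anapc15, Cdc26, Map2k1, Ppp2r5c, Bub3, Plk1, Pde3a, Cul1, Wee1 and Espl1. The span of each overlaps an annotated gene on the other strand, and overlap of their exons was not examined. All 8 are protein-coding. Counts were not whole in 8 libraries for Cdc20, in 4 for Ube2c and in 3 for Pttg1, which means that some of their reads were divided with other genes. Among stretches of 50 bases, Ube2c shared 14% with protein-coding transcripts of Tnnc2, on the opposite strand. Cdc20 shared 10.3% with the pseudogene Gm7856, which had 12 counts in all, and Fbxo5 shared 8.71% with the pseudogene Gm16042, which had 79. The same 8.71% of Fbxo5 also reads, on the opposite strand, in transcripts of Glcci1 and Gm45062, which had 10126 and 5879 counts over all libraries. Fbxo5 counts were whole in all 8 libraries.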

How the data were processed

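RNA was extracted with TRIzol and sequenced from NEBNext Ultra RNA libraries, per the labels' protocols. The authors deposited unscaled expected counts per gene. Their tools were RSEM 1.2.28, STAR 2.7.3a and Trim Galore 0.6.10, with GRCm38 as the build, per the submitters' processing notes, and no source used here names the annotation release or strand setting. RSEM estimates how to divide reads that match several genes.

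Expected counts were rounded (4.22% of values changed). Genes were filtered with filterByExpr (minimum count 10, minimum total 15), which left 13146. Groups were compared with edgeR 4.0.16 in R 4.3.3 (TMM scaling, robust quasi-likelihood test, group as the only term), with Benjamini-Hochberg adjustment over all genes tested. CPM are TMM-scaled, and SE and 95% intervals were derived from the F statistic. The limit for a count of 0 is 3 counts. The labels name no molecular identifiers, so such limits cover counting error only. Exonic lengths and 3′ ends come from GENCODE M21, whose symbols matched 53254 of 55487 table symbols.

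The members, although taken by symbol, and the lists were chosen with earlier results of these data known. Named are the 8 members and Polq; in each partner list, the 2 genes with the smallest p and the most abundant gene; the most abundant marker of each other cell type; and the 2 most similar genes per member, among genes whose average log2 CPM was 5 or more and whose symbol is not a predicted one. Wee1, Espl1 and Rec8 were named outside this rule. A ratio of Cdc20 to Fzr1 is not given, because Fzr1 had 0 or 1 count in 3 libraries. Of the listed genes, 2 were not found under the symbols used. Alternatives were other scalings, filters, tests (DESeq2 1.42.0, limma 3.58.1), a replicate block, thinning, and leaving out libraries. The procedure was also run on simulated data, at the spread measured here (a common biological coefficient of variation of 0.987) and at a smaller one. Its pass mark was set only at the smaller spread, so the run is no evidence of what could be detected in these data.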

Additional observations from a re-analysis of the deposited data

Results flagged for a closer look

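In 5 of 74 groups of 4 libraries, 1 library stood far from the other 3, where chance gives about 1 in 20 (5%). Mos was at 17.1 CPM in control replicate 2, and the next control was at 1.93 CPM. The log2 ratio of Fbxo43 to Fbxo5 was −4.74 in the same library, and the next control was at −2.40. Ccnb1 was lowest there too, at 683 CPM, with the next control at 889.8 CPM. Tcstv3, a marker of the 2-cell stage, was at 405 CPM in knockdown-labelled replicate 1, above 237 CPM in the next library of its group. Tnfaip6, a cumulus marker, was at 10.7 CPM in knockdown-labelled replicate 4, above 1.16 CPM in the next.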

How the results depend on the processing

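None of the 8 regulators and none of their partners passed under any of the 19 other settings run. DESeq2 called 20 genes in all, and edgeR and limma-voom 0 in each. Mos and Fzr1 could not be tested in 2 of the settings, the filter of 5 CPM and thinning, where they failed the filter. Leaving out 1 library at a time gave log2 fold changes from −1.76 to 1.70 for Mos, from −0.53 to 0.012 for Fbxo43, from −1.34 to 1.77 for Fzr1 and from −0.20 to 0.23 for Wee2. Among partners it ran from −0.035 to 0.20 for Anapc15, from −0.20 to 0.079 for Ppp2r5c, from −0.22 to 0.018 for Mad2l1 from −0.26 to 0.0096 for Cul1 and, with no change of sign, from −3.28 to −1.62 for Camk2g. Signs also turned with limma-voom, to 0.058 for Mos, 0.11 for Fbxo43, −0.17 for Fzr1 and −0.057 for Wee2. With sample weights Mos was at 0.15 and Wee2 at −0.0034, and with no filter Wee2 was at −0.028. The cause was not tested.

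Same-numbered libraries did not deviate together (correlations from −0.12 to 0.017). The labels state no pairing, and whether same-numbered samples share more than a number was not tested. With a replicate block the test called 0 genes, Mos was at 0.73 and Fzr1 at −0.046. With knockdown-labelled replicate 4 alone against the controls, a comparison added after the data were seen, the lone library was assumed to vary like the controls. Then Fbxo43 was at 0.31, Fzr1 at −5.69, Ube2c at −0.36, Wee2 at −0.28, Pttg1 at 0.086, Rps6ka6 at 0.17, Mad2l1 at 0.20 and Polq at 0.073, where the median of all genes was −0.36. In the shallowest library, knockdown-labelled replicate 1, 3 counts equal 0.595 CPM, below which a level could not be told from 0.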
